A study of Homo sapiens with 4 samples.

Results

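Promoter accessibility of 10 genes of cytosolic DNA sensing was followed in HEK293T cells, out of 28775 promoters in the count table. The members were chosen by name, as sensors and signalling genes for foreign DNA, and their rows were found by Entrez identifier with no filter on low counts. All 10 had a row, namely CGAS (Entrez 115004), IFI16 (3428), AIM2 (9447), ZBP1 (81030), DDX41 (51428), TLR9 (54106), STING1 (340061), TBK1 (29110), IRF3 (3661) and TREX1 (11277). With TMM scaling, edgeR called 0 of the 9 members it could test as changed after MORC2 overexpression, against 2.47% of all 23407 promoters tested. With scaling by library totals, 5 of the 9 were called as lower, against 69.5% of all promoters tested. The filter on low counts left out AIM2. The level of accessibility differed far more between the genes than between the groups.

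ATAC-seq marks open DNA by letting the transposase Tn5 insert sequencing adapters into it. The overexpression group (2 libraries) was wild-type HEK293T transfected with pBacMam-MORC2-meGFP, a plasmid that encodes MORC2, a DNA-compacting ATPase, fused to a green fluorescent protein, for 72 hours, as the study's methods state. The control group (2 libraries) was the same line given lipofectamine only, so that the presence of plasmid DNA, the fluorescent protein and MORC2 itself cannot be told apart in any difference between the groups. Both groups carry the endogenous MORC2 gene and the SV40 large T antigen, and all libraries come from this 1 human embryonic kidney line. The study's methods call its wild-type ATAC-seq replicates independent and its text gives 2 for this comparison. Neither says whether these were separate transfections. The p-values rest on the spread between these libraries, pooled over promoters, and this spread may be technical.

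DNA in the cytosol is read by mammalian cells as a sign of infection or damage. CGAS, a DNA-activated synthase, makes the cyclic dinucleotide cGAMP, which binds the membrane adaptor STING1. STING1 recruits the kinase TBK1, and TBK1 activates the transcription factor IRF3, which switches on type I interferon. Other receptors read DNA along separate routes, among them the inflammasome sensor AIM2 and the endosomal receptor TLR9, and the exonuclease TREX1 degrades the DNA that would feed the pathway. HEK293T cells are a common host for rebuilding this pathway from plasmids because their own is weak.

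The promoter sequences below show what the windows hold at both ends of the range of accessibility. RefSeq (GRCh38.p14) sequences of 300 bases, from 250 before to 50 after a gene start, were matched for 6 of the 10 members, and 4 are printed, 5′ to 3′ on the strand of the gene, with each CpG dinucleotide in capitals. DDX41 (chr5:177516912-177517211, minus strand) and TBK1 (chr12:64451870-64452169, plus strand) stand for the accessible promoters, TREX1 (chr3:48465580-48465879, plus strand) for the middle and AIM2 (chr1:159076717-159077016, minus strand) for the least accessible.
DDX41: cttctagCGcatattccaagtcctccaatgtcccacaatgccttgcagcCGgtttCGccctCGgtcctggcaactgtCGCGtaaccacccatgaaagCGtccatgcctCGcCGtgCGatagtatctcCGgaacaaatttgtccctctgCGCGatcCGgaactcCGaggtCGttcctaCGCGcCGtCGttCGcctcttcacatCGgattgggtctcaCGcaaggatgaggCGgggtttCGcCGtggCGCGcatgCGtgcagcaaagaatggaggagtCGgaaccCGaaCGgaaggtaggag
TBK1: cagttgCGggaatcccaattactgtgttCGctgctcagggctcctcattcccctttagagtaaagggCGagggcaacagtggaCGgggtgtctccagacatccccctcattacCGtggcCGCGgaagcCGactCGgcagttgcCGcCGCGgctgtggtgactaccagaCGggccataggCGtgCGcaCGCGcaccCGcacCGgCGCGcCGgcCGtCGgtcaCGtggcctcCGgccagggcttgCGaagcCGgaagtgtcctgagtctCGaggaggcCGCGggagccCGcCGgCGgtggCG
TREX1: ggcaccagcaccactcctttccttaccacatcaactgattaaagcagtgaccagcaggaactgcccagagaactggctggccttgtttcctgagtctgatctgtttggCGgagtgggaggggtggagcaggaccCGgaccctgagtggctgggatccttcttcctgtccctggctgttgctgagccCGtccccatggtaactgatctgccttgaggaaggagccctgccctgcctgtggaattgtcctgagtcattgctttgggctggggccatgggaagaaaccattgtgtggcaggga
AIM2: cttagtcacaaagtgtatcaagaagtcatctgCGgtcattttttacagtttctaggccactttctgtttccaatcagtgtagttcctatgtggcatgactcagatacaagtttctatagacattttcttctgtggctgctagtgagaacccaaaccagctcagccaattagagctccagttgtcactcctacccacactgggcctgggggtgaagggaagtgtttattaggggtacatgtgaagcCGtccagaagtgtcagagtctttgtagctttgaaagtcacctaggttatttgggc

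The CpG dinucleotide, which is rare outside promoter islands, numbered 32 in the DDX41 sequence and 35 in that of TBK1, against a median of 14 over 35116 RefSeq promoter sequences. TREX1 held 3, TLR9 held 2 and AIM2 held 2. The GC content was also highest in TBK1, at 68.3%, and DDX41, at 59.0%, beside a median of 58.7% over all promoter sequences. It was 57.7% in both TREX1 and TLR9, close to DDX41, and 45.0% in AIM2. IFI16 has 2 start sites in the table, with 1 and 3 CpG dinucleotides and a GC content of 42.3% and 41.7%. The 2 printed promoters with the most CpG dinucleotides thus belonged to genes with higher accessibility than the other 4 members with a sequence, a description over 6 genes. The motifs searched, on both strands, were GAAANNGAAA (bound by interferon regulatory factors), TTCNNNGAA (STAT factors), GGGCGG (SP factors), CCGGAAG (ETS factors) and TATAAA. AIM2 held 1 match to the first, TTTCTGTTTC on the printed strand, which 3.57% of all promoter sequences hold. TBK1 held 1 match to CCGGAAG (10.3% of all), and TLR9 and 1 of the IFI16 sequences held TATAAA (11.5% of all). No member sequence held TTCNNNGAA (7.66% of all) or GGGCGG (45.0% of all). The study counted reads on CHM13, another assembly, and its start sites can differ from those printed.

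Library depth limits what these promoters can show. Total promoter counts ranged from 3734519 to 10255182 and were lowest in overexpression replicate 2. Mitochondrial promoters took from 51.9% to 55.6% of the counts in control and from 73.8% to 74.7% in overexpression, so that a nuclear promoter of median count had 98 and 74 fragments in control, against 40 and 23 in overexpression. Levels are given as TMM-scaled CPM, that is counts relative to a library total scaled so that most promoters are level between libraries, and all windows were taken to be 2 kb long, so that levels can be set side by side between genes. The line was checked against markers chosen for it. The promoters of 8 genes used in embryonic kidney or HEK293T cells had a summed level between 124.5 and 131.8 CPM in the 4 libraries, from 51.4 CPM for VIM down to 1.74 CPM for EYA1 in the control mean. The promoters of 6 immune cell genes summed to 14.6 and 14.2 CPM in control and 17.5 and 20.9 CPM in overexpression, from 5.60 CPM for CD79A, 3.68 for SPI1 and 2.67 for CD14 down to 1.14 for LYZ, 0.837 for CD3E and 0.490 for PTPRC in the control mean. No marker was at 0 in any library. In the control mean, 3 of the 6 immune promoters were more accessible than that of EYA1. CD79A and SPI1 were also above PAX2, at 3.59 CPM, so the 2 marker lists overlapped gene by gene. Whether these marker levels bear on the results for the immune genes among the members was not tested.

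The levels of the 10 members spanned a ratio of 42.0 in the control mean, from DDX41 down to AIM2. In order the control means were 46.6 CPM for DDX41, 25.2 for IRF3, 19.6 for TBK1, 9.77 for TREX1, 6.44 for TLR9, 5.21 for STING1, 2.84 for ZBP1, 1.94 for CGAS, 1.66 for IFI16 and 1.11 for AIM2. Over all 4 libraries, the ranges of neighbours in this order did not overlap for DDX41 and IRF3, IRF3 and TBK1, TBK1 and TREX1, STING1 and ZBP1, or ZBP1 and CGAS. TREX1 overlapped TLR9, TLR9 overlapped STING1, and CGAS, IFI16 and AIM2 overlapped in turn. Within control alone, TREX1 (8.97 and 10.6 CPM) lay above TLR9 (6.34 and 6.54 CPM), and TLR9 above STING1 (5.13 and 5.29 CPM). CGAS, IFI16 and AIM2 overlapped in turn within control as well. DDX41, IRF3 and TBK1 held ranks 1, 2 and 3 in every library. The pair of members with the most similar values was TLR9 and STING1, with a root mean square difference of 0.41 in log2 CPM over the 4 libraries.

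**Figure D1:**
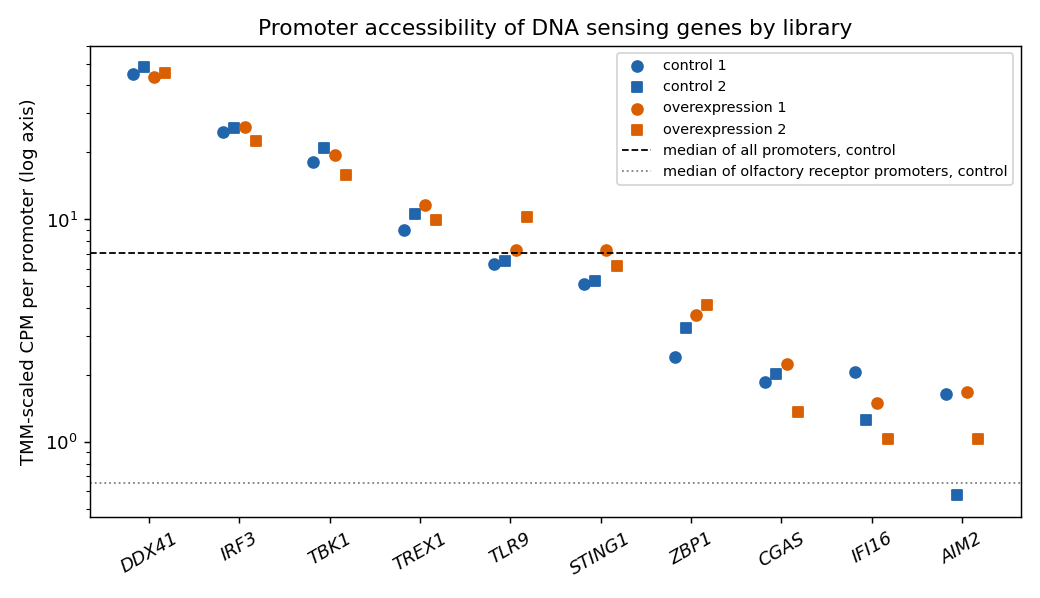
TMM-scaled CPM (log axis) of each member promoter in the 2 control libraries (blue) and the 2 overexpression libraries (orange), ordered by the control mean, with the control medians of all promoters (7.09 CPM, dashed) and of olfactory receptor promoters (0.657 CPM, dotted). The genes are spread over a control ratio of 42.0, whereas the 4 points of a gene lie close together, except at the lowest levels where single libraries scatter.

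CGAS, the cyclic GMP-AMP synthase that opens the pathway, had a promoter of low accessibility. It held 26 and 21 fragments in control, against 12 and 4 in overexpression, or 1.85 and 2.02 CPM against 2.24 and 1.37 CPM. The overexpression values lay on either side of the control values, so the groups overlapped. On the log2 scale this came to 0.0021 (SE 0.441, edgeR adjusted p 0.999). Its 95% interval ran from −0.86 to 0.87, or from 0.550 to 1.82 as a fold. Among promoters of like abundance, the smallest change called was 1.06 on the log2 scale, so smaller ones could be missed at this depth. In control, CGAS lay at percentile 32.1 of all promoters. As a reference chosen after the levels were seen, 400 promoters of olfactory receptor genes, which are silent outside sensory neurons, had a control median of 0.657 CPM and a 90th percentile of 1.27 CPM. CGAS was above that, at a control mean of 1.94 CPM, which rests on only 26 and 21 fragments. In overexpression its mean of 1.80 CPM met the olfactory 90th percentile of 1.79 CPM. Its direction turned with several settings, to a log2 fold change of −0.38 with scaling by loess on abundance.

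IFI16 and AIM2 are sensors of the PYHIN family, with a DNA-binding HIN domain, and lie side by side on chromosome 1. IFI16, which acts in the nucleus as well as the cytosol, had 29 and 13 fragments in control, against 8 and 3 in overexpression. Its levels were 2.07 and 1.25 CPM in control and 1.49 and 1.03 CPM in overexpression, with overlapping groups. Its log2 fold change was −0.37 (SE 0.511, 95% interval from −1.37 to 0.64, adjusted p 0.752), and without control replicate 1 it was 0.080. AIM2, which assembles an inflammasome on DNA, had 23 and 6 fragments in control, against 9 and 3 in overexpression. It was the 1 member left out by the filter on low counts. Fitted without a filter, its log2 fold change was 0.26 (SE 0.533, 95% interval from −0.78 to 1.31, adjusted p 0.856), and it turned to −0.18 without control replicate 2 and to −0.20 without overexpression replicate 1. In the control mean, 81.3% of the olfactory receptor promoters lay below AIM2. The other 2 PYHIN genes, PYHIN1 and MNDA, had at most 11 and 6 counts in any library and were not retained by the filter. Accessibility was thus low across this gene family in both groups.

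ZBP1 binds Z-form nucleic acid and links it to cell death. Its promoter had 34 and 34 fragments in control, against 20 and 12 in overexpression, or 2.42 and 3.27 CPM against 3.73 and 4.11 CPM. Both overexpression libraries were above both control libraries. The log2 fold change of 0.47 (SE 0.331, 95% interval from −0.18 to 1.12) had an adjusted p of 0.486. Tested promoters were put into 4 bins of equal size by mean abundance, and the median log2 fold change was 0.39 in the lowest bin, where ZBP1 stood at percentile 56.5. The log2 fold change of ZBP1 was 0.11 with loess scaling and 0.24 without control replicate 1.

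TLR9 is the endosomal receptor for unmethylated CpG DNA and is used mainly by plasmacytoid dendritic cells and B cells. Its promoter had 89 and 68 fragments in control, against 39 and 30 in overexpression. The levels were 6.34 and 6.54 CPM in control and 7.27 and 10.3 CPM in overexpression. The groups did not overlap, with overexpression replicate 2, the shallowest library, the highest. This log2 fold change of 0.38 (SE 0.224, 95% interval from −0.059 to 0.82) had an adjusted p of 0.382. It was 0.67 without overexpression replicate 1 and 0.17 without overexpression replicate 2, and neither passed the threshold.

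DDX41, a DEAD-box helicase of splicing that has been described as a DNA sensor, had the most accessible promoter of the 10, at percentile 97.4 of all promoters in control. It held 630 and 502 fragments in control, against 235 and 133 in overexpression. The levels of 44.9 and 48.2 CPM in control and 43.8 and 45.6 CPM in overexpression overlapped. With a log2 fold change of −0.062 (SE 0.108) and a 95% interval from −0.27 to 0.15, the fold lay between 0.827 and 1.11. This was the narrowest interval among the members, and the adjusted p was 0.815.

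STING1, the adaptor of the endoplasmic reticulum that binds cGAMP, had 72 and 55 fragments in control, against 39 and 18 in overexpression. Its 5.13 and 5.29 CPM in control were below the 7.27 and 6.17 CPM in overexpression, with no overlap. The estimate was 0.40 on the log2 scale (SE 0.246, 95% interval from −0.081 to 0.88), with an adjusted p of 0.404. The next to lowest abundance bin, which holds STING1, TLR9 and TREX1, had a median log2 fold change of 0.13 over 5852 promoters, and STING1 stood at percentile 80.6 of it. With loess scaling the log2 fold change of STING1 was 0.20. The next gene on 1 side, SMIM33, had a promoter that rose, with 32 and 21 fragments in control beside 19 and 21 in the shallower overexpression libraries (log2 fold change 1.16, SE 0.325, adjusted p 0.0319). UBE2D2 on the other side had a log2 fold change of −0.38 (adjusted p 0.0841).

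TBK1, the kinase that phosphorylates STING1 and IRF3, had 254 and 219 fragments in control, against 104 and 46 in overexpression. Its levels were 18.1 and 21.0 CPM in control and 19.4 and 15.8 CPM in overexpression. The groups overlapped, and overexpression replicate 2 was the lowest. TBK1 thus had a log2 fold change of −0.10 (SE 0.147, 95% interval from −0.39 to 0.19, adjusted p 0.765).

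IRF3, the transcription factor that TBK1 activates, had 347 and 267 fragments in control, against 140 and 66 in overexpression, or 24.7 and 25.7 CPM against 26.1 and 22.6 CPM. The groups overlapped, and the log2 fold change was −0.019 (SE 0.131, 95% interval from −0.28 to 0.24, adjusted p 0.958). BCL2L12, an apoptosis regulator and the next gene, had 352 and 263 fragments in control, against 137 and 67 in overexpression. Each of these counts lay within 10% of that of IRF3, so the 2 windows appear to share most fragments and the promoters cannot be told apart. SCAF1, the next gene on the other side, fell by 0.55 on the log2 scale (adjusted p 0.00061, SE 0.117), from 624 and 539 counts in control to 190 and 82 in overexpression. No call was made at IRF3 itself.

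TREX1, the main cytosolic DNA exonuclease, had 126 and 110 fragments in control, against 62 and 29 in overexpression. The levels were 8.97 and 10.6 CPM in control and 11.6 and 9.94 CPM in overexpression, and the groups overlapped. A log2 fold change of 0.18 (SE 0.192, 95% interval from −0.20 to 0.56, adjusted p 0.673) stood beside the median of 0.13 in its abundance bin. The read-through gene ATRIP-TREX1, which starts upstream, had a log2 fold change of −0.15 (adjusted p 0.695).

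Counted over the group, 9 of the 10 members passed the filter, and 0 of these 9 had an adjusted p under 0.05 in the quasi-likelihood F-test of edgeR, against 2.47% of all 23407 promoters tested (1.16% rose and 1.3% fell). At an unadjusted p under 0.05 the count was also 0 of 9, against 17.2% of all promoters. DESeq2 and limma-voom called 0 as well, although DESeq2 gave an adjusted p for DDX41 alone among the members. In 3 of the 9, ZBP1, TLR9 and STING1, both overexpression libraries lay above both control libraries, and in none did they lie below. Of all promoters tested, 24.8% lay above in this way and 24.9% below, or 49.7% in either direction. The median log2 fold change of the 9 was 0.0021, beside 0.0099 for all promoters tested. Taken over the 9, the medians of their abundance bins had a median of 0.13. Members with low levels were not tested with the precision of the others, because the smallest change called among 5852 promoters was 1.06 on the log2 scale in the lowest abundance bin and 0.30 in the highest. In bulk ATAC-seq, fewer cells with an open promoter and less opening in each cell cannot be told apart.

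**Figure D2:**
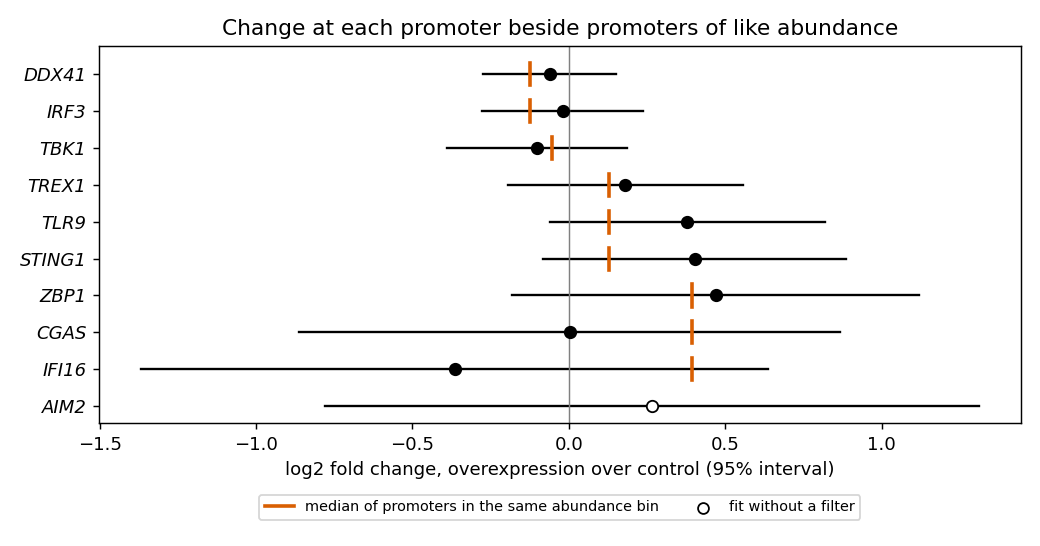
Log2 fold change (horizontal axis, overexpression over control) of each member promoter with its 95% interval from edgeR, ordered by control level; orange bars give the median of all promoters in the same abundance bin, and the open circle for AIM2 comes from the fit without a filter. Every interval includes 0. In the filtered fit the narrowest ran from −0.27 to 0.15 at DDX41 and the widest from −1.37 to 0.64 at IFI16. That of AIM2, without a filter, ran from −0.78 to 1.31.

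Genes next to the members were followed as well. Of 18 such genes outside the list, 17 were tested, 1 rose (SMIM33 beside STING1) and 1 fell (SCAF1 beside IRF3), against 1.16% and 1.3% of all promoters tested, and the other 15 had log2 fold changes from −0.38 to 0.23. SMIM33 had an adjusted p of 0.342 with loess scaling, of 0.140 and 0.177 without control replicate 1 or 2, and of 0.547 without overexpression replicate 2. That of SCAF1 was 0.103 with loess scaling, 0.0677 without control replicate 2 and 0.138 without overexpression replicate 2.

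The members' count depended on how the libraries were scaled. Scaling by library totals, which are mostly mitochondrial counts, put the median promoter at a log2 fold change of −0.78 and called 69.7% of all promoters. With it, 5 of the 9 members passed the threshold, all lower in overexpression (DDX41, IRF3, TBK1, TREX1 and IFI16), with 69.5% of all promoters called as lower. The log2 fold changes under that scaling were −0.85 for DDX41, −0.82 for IRF3 and −0.91 for TBK1. They were −0.62 for TREX1 and −1.15 for IFI16, beside −0.78 for the median promoter. In every other setting tried, 0 members passed.

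To place the members in their pathway, 92 further genes were listed by role, of which 85 passed the filter. Among these 85, 1 promoter rose (TREX2) and 3 fell (PYCARD, DHX36 and DDX3X), a share of 4.71% beside 2.47% for all promoters tested. The median log2 fold change of the 85 was −0.039. The list was chosen with earlier results of these data known.

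PYCARD, the adaptor (ASC) that joins AIM2 to caspase 1, had the smallest p of the list. It held 225 and 182 fragments in control, against 39 and 33 in overexpression, or 16.0 and 17.5 CPM against 7.27 and 11.3 CPM. The groups did not overlap. PYCARD fell by 0.93 on the log2 scale (adjusted p 0.000128, SE 0.194), and had −0.57 with an adjusted p of 0.284 without overexpression replicate 1. The window lies beside that of its antisense neighbour PYCARD-AS1, which changed by −0.94 (adjusted p 3.23e-05, SE 0.185; 0.176 without overexpression replicate 1), and reads of the pair cannot be told apart where the windows overlap. The other tested genes of inflammasome and cell death, 8 in number, were not called, and IL18 was not retained by the filter.

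DHX36, a helicase that unwinds G-quadruplexes and has been described as a cofactor of CpG DNA sensing, had 158 and 139 fragments in control, against 45 and 13 in overexpression. Its level fell from 12.3 ± 1.49 to 6.42 ± 2.78 CPM (SD, n = 2), or −0.80 on the log2 scale (adjusted p 0.0137, SE 0.219). Without overexpression replicate 2, the lowest library at 4.45 CPM, this was −0.54 with an adjusted p of 0.308. Without control replicate 2 the adjusted p was 0.139. Of the 15 sensor relatives and cofactors tested, DHX36 was the 1 called, against 2.47% of all promoters tested. A log2 fold change below 0 was found in 14 of the 15, against 11381 of all 23407 promoters tested. The promoters of this group are mostly abundant (median of the matching bins −0.13), whereas the bin of DHX36 had a median of 0.13.

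DDX3X, an RNA helicase that binds TBK1 and IKBKE, had 608 and 436 fragments in control, against 194 and 77 in overexpression. The level fell from 42.6 ± 0.991 to 31.3 ± 6.91 CPM (SD, n = 2), or −0.39 on the log2 scale (adjusted p 0.0401, SE 0.118). The adjusted p was 0.395 with loess scaling, 0.112 with upper-quartile scaling and 0.0994 in DESeq2. It was 0.193 and 0.104 without control replicate 1 or 2, and 0.515 without overexpression replicate 2. DDX3X was the 1 called among 13 kinases and transcription factors with their partners, against 2.47% of all promoters tested.

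TREX2, a 3′ exonuclease related to TREX1, had 96 and 74 fragments in control, against 52 and 42 in overexpression. Its promoter rose, from 6.84 and 7.11 CPM to 9.69 and 14.4 CPM, by 0.71 on the log2 scale (95% interval from 0.32 to 1.10, adjusted p 0.0334), whereas TREX1 was not called. Whether the 2 genes differ was not tested. The adjusted p of TREX2 was 0.173 with loess scaling. Leaving out control replicate 1 or 2 gave 0.160 and 0.108, and leaving out overexpression replicate 2 gave 0.431. With library totals the direction turned, to −0.075. TREX2 was the 1 called among 11 genes for nucleases and limits on self nucleic acid, against 2.47% of all promoters tested.

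No promoter was called among 12 genes of RNA polymerase III, which can copy AT-rich DNA into a ligand for RNA sensors, where the log2 fold changes ran from −0.36 to 0.26. None was called among 13 regulators of STING and of cyclic dinucleotides, from −0.19 to 0.92, or among 7 genes of the TLR9 route, from −0.30 to 1.02. Of 9 target genes of the pathway, 5 were tested and 0 were called, with log2 fold changes from −0.13 to 0.38. At an unadjusted p under 0.05 the counts of these 4 groups were 2, 2, 2 and 0, with 17.2% of all promoters under it and 2.47% under the adjusted threshold. Of all 85 promoters limma-voom called 5, and DESeq2 called 0 of the 11 for which it gave an adjusted p, which leave out PYCARD, DHX36 and TREX2. The interferon beta gene IFNB1, the best known target of IRF3, had 8 and 1 fragments in control, against 3 and 0 in overexpression, and its groups overlapped. CXCL10, an interferon-induced chemokine, had 2 and 7 fragments in control, against 9 and 5 in overexpression, or 0.142 and 0.673 CPM against 1.68 and 1.71 CPM. CCL5 had 0.712 and 0.577 CPM in control, against 1.49 and 1.03 CPM in overexpression. For both of these chemokine genes the overexpression libraries lay above the control libraries, whereas CCL4 overlapped. Of the promoters that passed the filter 24.8% lay above in this way, and no share was counted for those left out. These 4 target genes were not retained by the filter and had at most 10 counts in any library, so they had no test. In the control mean these 4 target genes lay below the olfactory 90th percentile, from 0.333 CPM for IFNB1 to 0.789 CPM for CCL4, and in the overexpression mean the highest of them, CXCL10 at 1.70 CPM, lay below that of 1.79 CPM.

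**Figure D3:**
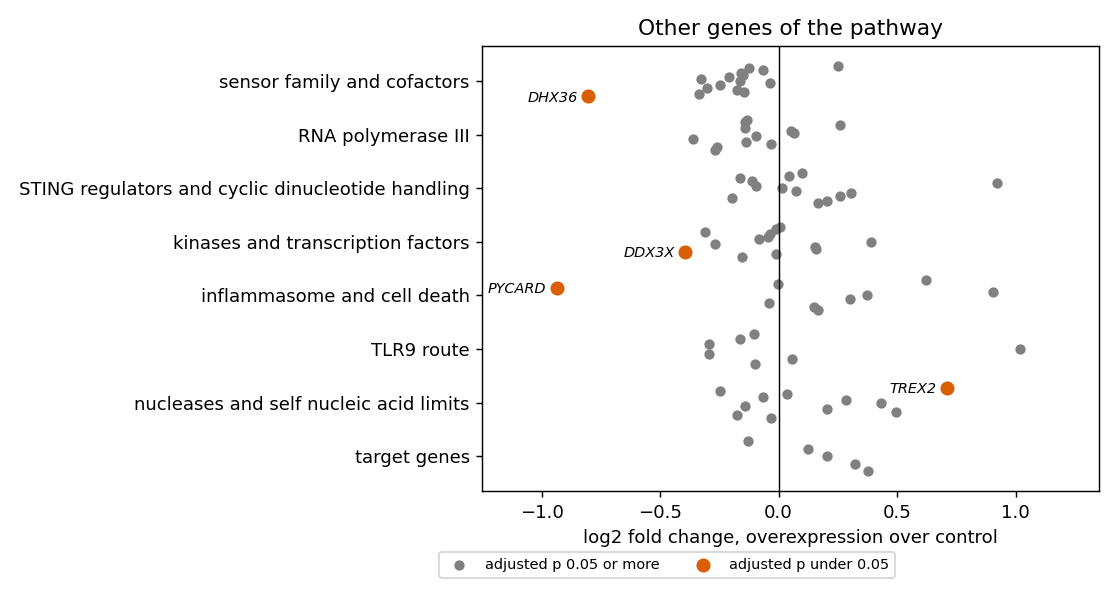
Log2 fold change (horizontal axis, overexpression over control) of the 85 tested promoters of other pathway genes, by role, with those past an adjusted p of 0.05 in orange. Only PYCARD, DHX36 and DDX3X at −0.93, −0.80 and −0.39 and TREX2 at 0.71 were called in the edgeR fit.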

How the data were processed

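ATAC-seq was measured in 4 libraries of HEK293T cells, 2 per group, with groups and replicate numbers taken from the sample labels. As the study's methods state, the authors trimmed reads, aligned them with Bowtie2 to the CHM13 assembly, kept proper pairs with a mapping quality of at least 30, removed duplicates with Picard and counted fragments by midpoint. The table the authors deposited holds unnormalised whole-number counts per promoter (a 2 kb window around a start site), 1 row per Entrez identifier. Peak lists were not used here, since promoter positions on CHM13 were not analysed.

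Symbols, neighbours and promoter sequences came from RefSeq tables of GRCh38.p14, which named 28763 of 28775 promoters. Promoters were filtered with filterByExpr, scaled by TMM and tested with the two-sided quasi-likelihood F-test of edgeR 4.0.16 in legacy form (R 4.3.3), with Benjamini-Hochberg adjustment over all 23407 promoters tested and a threshold of 0.05. Standard errors and 95% intervals came from the same fit, whose prior degrees of freedom were infinite. The spread of a promoter's own replicates thus did not set its p-value or interval. The 4 abundance bins were cut on the mean log2 CPM of that fit. The code was tested on simulated data. Alternatives used DESeq2 1.42.0 and limma 3.58.1. The members and gene lists were chosen with earlier results of these data known. Named promoters are the 10 members, the gene on each side of them (summarised where not called), and pathway genes with an adjusted p under 0.05. Markers, the olfactory receptor reference and genes left out by the filter are named besides, the last 2 chosen after their values were seen. The replicates of a group differed by more than sampling noise (chi-square per degree of freedom 1.26 in control and 1.14 in overexpression). Counts without molecular identifiers are not independent molecules.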

Additional observations from a re-analysis of the deposited data

How the results depend on the processing

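Loess scaling without mitochondrial promoters was added after seeing the data, and where no cause is given it was not tested. No member passed the threshold in the main fit or under 16 of 17 alternatives. With library totals 5 passed, as did 69.7% of all promoters tested. The median log2 fold change of the members was −0.80 with library totals and moved by less than its replicate spread otherwise, from −0.10 to 0.19 without single replicates. Changed promoters (577) numbered 16319 with library totals, 108 with DESeq2, 71 with loess, 36 with loess without mitochondrial promoters, 218 with a mean count of 50 or more, 368 with 10 or more counts in every library, and from 101 to 206 without single replicates. Called pathway promoters (4) numbered 70 with library totals, 2 with loess, 2 with loess without mitochondrial promoters and from 1 to 3 without single replicates. They numbered 0 with DESeq2, which gave an adjusted p for 11 of the 85 and for DDX3X alone among these 4, so no call of the other 3 was tested by it.

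Directions of uncalled members turned as follows. With library totals, CGAS was −0.80, ZBP1 −0.33, TLR9 −0.41, STING1 −0.40 and TREX1 −0.62. With loess, CGAS was −0.38, DDX41 0.088 and IRF3 0.076, and without mitochondrial promoters CGAS was −0.47, DDX41 0.088 and IRF3 0.076. CGAS was −0.042 with DESeq2, −0.023 with no filter, −0.0095 with the replicate block and −0.0083 without mitochondrial promoters. With upper-quartile scaling DDX41 was 0.020 and IRF3 0.061, with a mean count of 50 or more they were 0.010 and 0.052, and IRF3 was 0.0070 with at least 10 counts. AIM2, 0.26 with no filter, was −0.29 with loess without mitochondrial promoters, and from −0.20 to 0.50 without single replicates. Without single replicates, CGAS ranged from −0.49 to 0.21, IFI16 from −0.74 to 0.080 and IRF3 from −0.16 to 0.046.

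Same-numbered libraries deviated with a correlation of 0.05 over 14976 promoters, so the 2 pairs were not treated as pairs. The replicate block gave 488 changed promoters, 0 members and 4 pathway promoters, with a median log2 fold change of −0.0095 for the members, and the same 4 pathway promoters, SMIM33, SCAF1 and PYCARD-AS1 stayed under an adjusted p of 0.05. With denominators of nuclear counts, the ratio of group means of every member moved by less than its replicate spread.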
